A study of Mus musculus with 12 samples.

Results

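The 8 genes described here mark the mural cells and fibroblasts of the kidney interstitium: Acta2, Tagln and Myh11 of the smooth muscle contractile apparatus, the intermediate filament genes Des and Vim, the PDGF receptor genes Pdgfra and Pdgfrb, and the surface glycoprotein gene Thy1. They were selected by gene symbol, and all 8 were found among the 45777 genes of the deposited mouse table. The study measured messenger RNA of whole kidneys from male wild-type C57BL/6 mice in 4 groups of 3 libraries. Normal mice received neither cisplatin nor vesicles. The other 3 groups all received cisplatin, a platinum drug that injures the kidney tubule, at 9 mg/kg into the peritoneum in 5 weekly cycles, and then 5 intravenous injections spaced 3 days apart. The injections held PBS alone (the PBS group), 200 µg of iMSC-EVs (EV200) or 400 µg of iMSC-EVs (EV400), extracellular vesicles whose source is abbreviated iMSC in the labels, and kidneys were taken 3 days after the last of them. Normal mice had no injections named in the labels, so the effects of cisplatin and of the injections cannot be told apart in a comparison with them.

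Pericytes wrap the capillaries of the kidney, mesangial cells hold the glomerular capillaries and resident fibroblasts lie between the tubules. These cells carry the receptors PDGFR-alpha or PDGFR-beta, which bind PDGF dimers released by endothelium, epithelium and platelets and drive growth and migration of mesenchymal cells. In an injured kidney some of them become myofibroblasts, which build contractile fibres of alpha smooth muscle actin and lay down fibrillar collagen. None of the 8 genes belongs to one cell type alone. Acta2, Tagln and Myh11 are also genes of arterial smooth muscle, Vim is also transcribed in podocytes, endothelium and leukocytes, and Thy1 is a classical surface marker of mouse T cells.

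Library totals lay between 46598091 and 62090819 counts, and a single member had between 49 and 6064 counts in a library, so counting error is widest for Thy1. All 8 members were among the 18730 genes that passed the filter on low counts. On the first principal component of all tested genes, which held 43.4% of the variance, the normal libraries lay between -47.9 and -39, PBS replicate 1 lay at 15.4 and PBS replicate 2 at 83.4. EV200 replicate 3 lay at 60.5, among the PBS libraries and away from the other two EV200 libraries at -18.7 and -8.59. EV400 replicate 3 lay at -52.1, beside the normal libraries, while the other two EV400 libraries lay at 1.06 and 7.93. On the second component, with 8.44% of the variance, EV400 replicate 3 lay at -51.5, far from the normal libraries at 11.7 to 18.1 and from every other library. These libraries stand apart from their groups in nearly every member, so results that rest on them are given with and without them. Levels of one gene across libraries are given in CPM, read counts scaled to library size with factors from the trimmed mean of M values. Levels of different genes are compared only in TPM, a level per transcript length that the authors deposited.

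Acta2 encodes alpha smooth muscle actin, the defining protein of the myofibroblast, and lies on chromosome 19 at 34240336 to 34255585 of GRCm38, on the minus strand. Its transcription is known to depend on serum response factor (SRF), which binds a short element called the CArG box, with cofactors of the myocardin family. The RefSeq promoter table (GRCm38.p6) held 300-base windows around the transcript start for 4 members, Acta2, Des, Vim and Pdgfra. A search of both strands for the 10-base CArG box, allowing 1 base other than A or T in its core, found 2 matches in the Acta2 window and 0 in the windows of Des, Vim and Pdgfra. Both Acta2 matches had such a base in the core. Both also lay inside the gene span given above, which ends at 34255585. Of 32851 promoter windows, 9.98% held at least 1 match of this kind, 0.822% held at least 2, and 1.63% held at least 1 match with no such base. The 2 stretches are shown because they are the elements through which SRF is known to act on the gene that defines the list, 5′ to 3′ on the minus strand, with the match in capitals. A match is a description of the letters, and binding was not measured here.
Acta2, chr19:34255438-34255467: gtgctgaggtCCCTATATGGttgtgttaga
Acta2, chr19:34255388-34255417: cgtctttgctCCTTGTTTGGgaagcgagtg

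In normal kidney the mean level per transcript length was highest for Vim, at 19.59 ± 1.13 TPM (SD, n = 3). Pdgfrb followed at 12.24 ± 1.30 TPM, Tagln at 11.14 ± 1.68 TPM and Acta2 at 11.06 ± 0.360 TPM, and the library ranges of these 3 neighbours overlapped. Pdgfra stood at 6.97 ± 0.175 TPM, Des at 5.36 ± 0.525 TPM, Myh11 at 3.98 ± 0.322 TPM and Thy1 at 1.15 ± 0.115 TPM, each apart from its neighbours in this order. In the PBS group the order was Vim, Tagln, Acta2, Pdgfrb, Pdgfra, Des, Myh11 and Thy1, from 62.22 ± 22.8 TPM for Vim to 5.93 ± 3.62 TPM for Thy1, and every pair of neighbours overlapped. Both vesicle groups had that same order of means. Their neighbours overlapped as well, except that Myh11 and Thy1 stood apart in EV400 at means of 4.10 and 2.19 TPM.

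**Figure D1:**
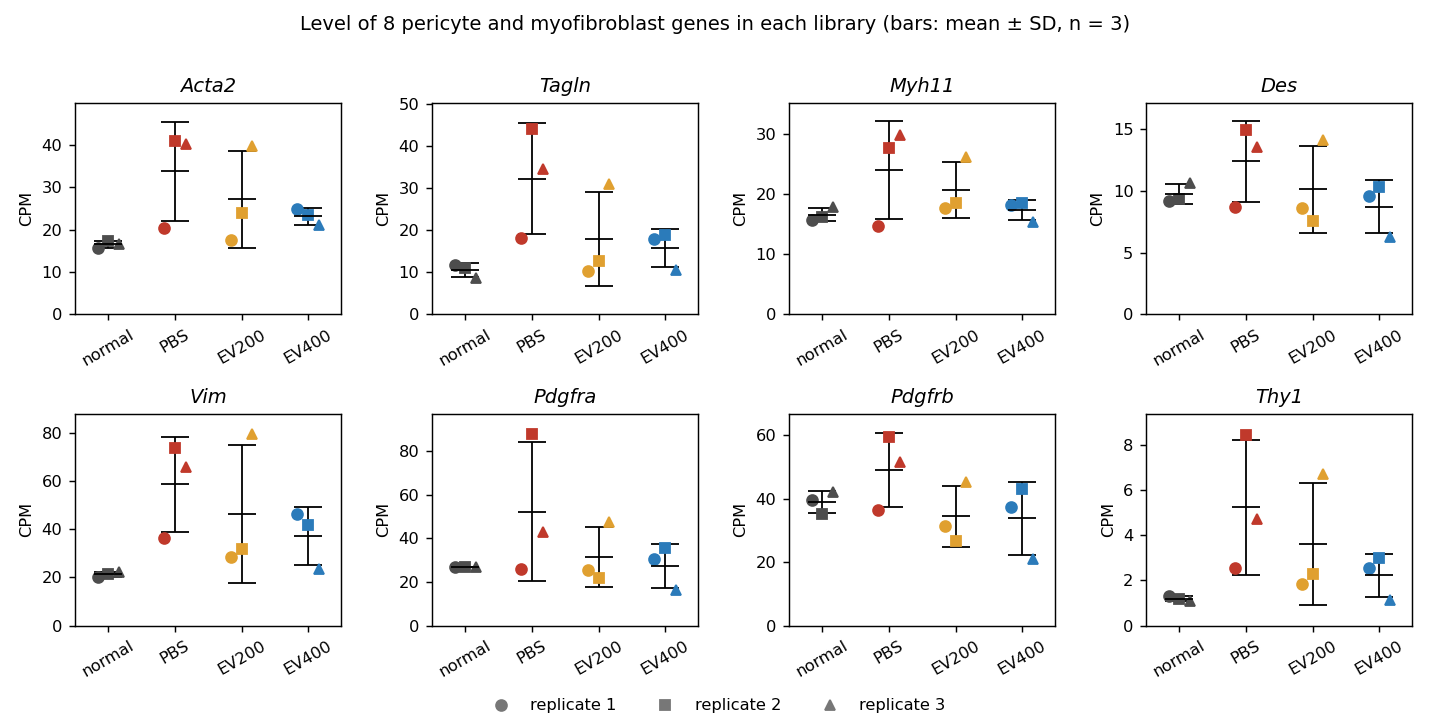
Level of each of the 8 genes in CPM (vertical axis, from 0) in the 12 libraries, by group, with circles, squares and triangles for replicates 1, 2 and 3 and bars for the mean ± SD of 3 libraries. The 3 normal libraries lie close together for every gene, the PBS libraries spread widely, and EV200 replicate 3 lies above both other EV200 libraries in every panel.

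The first question for these genes is how they differed between normal kidney and kidney after cisplatin and PBS. Kidneys of the PBS group held on average more RNA of all 8 genes, with fitted differences of 4.39-fold for Thy1, 3.09-fold for Tagln, 2.75-fold for Vim and 2.04-fold for Acta2 and smaller ones for the other 4. None of the 8 passed an adjusted p of 0.05 in edgeR's quasi-likelihood test, where 2.74% of all tested genes did. In the same test 6 of the 8 had an unadjusted p under 0.05, all higher, beside 29.8% of all tested genes in either direction and 17% higher. The median log2 fold change of the members was 0.99, and that of all tested genes was 0.0022. The labels call the libraries biological replicates and do not say whether each came from its own mouse, so p-values measure only the spread between these libraries. In whole tissue, more cells of a type and more RNA per cell cannot be told apart.

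Acta2 was at 15.72, 17.39 and 16.57 CPM in normal replicates 1, 2 and 3, at 20.30, 40.86 and 40.25 CPM in the PBS group, at 17.67, 24.03 and 39.86 CPM in EV200 and at 24.87, 23.54 and 21.05 CPM in EV400. Every library given cisplatin lay above the highest normal library, PBS replicate 1 lay far below the other two PBS libraries, and the PBS range overlapped both vesicle groups. The log2 fold change between PBS and normal was 1.03 (SE 0.29; edgeR, Benjamini-Hochberg adjusted p = 0.0599).

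Tagln, on chromosome 9 at 45929628 to 45936058, encodes transgelin, an actin-binding protein that appears early in smooth muscle differentiation. It was at 11.76, 11.11 and 8.57 CPM in normal kidney, at 18.17, 44.07 and 34.66 CPM in the PBS group, at 10.34, 12.61 and 30.90 CPM in EV200 and at 17.86, 18.98 and 10.66 CPM in EV400. The PBS libraries all lay above the normal ones, EV200 replicates 1 and 2 lay near them, and EV400 replicate 3 lay within their range. Its log2 fold change between PBS and normal was 1.63 (SE 0.41; edgeR, Benjamini-Hochberg adjusted p = 0.0543). In the GENCODE annotation Tagln shares 1349 of its 1988 exonic bases with Pcsk7 on the opposite strand and with Gm48529. The strand setting used for counting is not given in the sources used here, although the library kit was stranded. Pcsk7, a proprotein convertase gene, was at 39.2 to 52.1 CPM in the PBS group and at 46.4 to 49.9 CPM in normal kidney, and it was lowest in PBS replicate 2, where Tagln was highest.

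Myh11 encodes the smooth muscle myosin heavy chain, a late marker of mature smooth muscle, on chromosome 16 at 14194527 to 14292188. Its levels were 15.74, 16.16 and 17.87 CPM in normal kidney, 14.73, 27.71 and 29.77 CPM in the PBS group, 17.61, 18.56 and 26.11 CPM in EV200 and 18.21, 18.47 and 15.39 CPM in EV400. PBS replicate 1 lay below all normal libraries while the other two PBS libraries lay above them, so the groups overlapped. The log2 fold change between PBS and normal was 0.54 (SE 0.22; edgeR, Benjamini-Hochberg adjusted p = 0.138). Acta1, Actc1 and Actg2, whose coding sequences resemble that of Acta2, stood at 0.260 CPM or less in every library. Their cytoplasmic relative Actb, the non-muscle beta actin gene, rose between normal and PBS by a log2 fold change of 0.46 (SE 0.10; edgeR, Benjamini-Hochberg adjusted p = 0.0467).

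Des, on chromosome 1 at 75360292 to 75368579, encodes desmin, the intermediate filament of muscle and of mesangial cells and pericytes. It was at 9.19, 9.34 and 10.65 CPM in normal kidney, at 8.68, 14.89 and 13.51 CPM in the PBS group, at 8.60, 7.57 and 14.12 CPM in EV200 and at 9.60, 10.26 and 6.24 CPM in EV400. The groups overlapped throughout, with PBS replicates 2 and 3 and EV200 replicate 3 above the normal range and EV400 replicate 3 lowest of all. The log2 fold change between PBS and normal was 0.35 (SE 0.26; edgeR, Benjamini-Hochberg adjusted p = 0.383).

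Vim encodes vimentin, the intermediate filament of mesenchymal cells, and lies on chromosome 2 at 13574311 to 13582826. Its levels were 20.19, 21.37 and 22.25 CPM in normal kidney, 36.28, 73.48 and 65.87 CPM in the PBS group, 28.37, 31.56 and 79.46 CPM in EV200 and 46.13, 41.89 and 23.39 CPM in EV400. All 9 libraries given cisplatin lay above the highest normal library, and the highest of all was EV200 replicate 3. Between PBS and normal the log2 fold change was 1.46 (SE 0.39; edgeR, Benjamini-Hochberg adjusted p = 0.0570).

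Pdgfra encodes PDGFR-alpha, a receptor of interstitial fibroblasts, on chromosome 5 at 75151322 to 75198206. It was at 27.00, 26.93 and 26.95 CPM in normal kidney, at 25.92, 87.56 and 42.73 CPM in the PBS group, at 25.53, 21.68 and 47.31 CPM in EV200 and at 30.31, 35.34 and 16.18 CPM in EV400. The normal libraries were nearly equal, while PBS replicate 1 lay just below them and PBS replicate 2 far above every other library. The log2 fold change between PBS and normal was 0.95 (SE 0.41; edgeR, Benjamini-Hochberg adjusted p = 0.151), and without PBS replicate 2 it was 0.36.

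Pdgfrb encodes PDGFR-beta, the receptor of pericytes and mesangial cells, on chromosome 18 at 61045127 to 61085067. It was at 39.56, 35.25 and 42.00 CPM in normal kidney, at 36.30, 59.30 and 51.49 CPM in the PBS group, at 31.29, 26.69 and 45.20 CPM in EV200 and at 37.39, 42.98 and 20.91 CPM in EV400. PBS replicate 1 lay inside the normal range and the other two PBS libraries above it, while EV200 replicates 1 and 2 and EV400 replicate 3 lay below every normal library. Between PBS and normal the log2 fold change was 0.33 (SE 0.26; edgeR, Benjamini-Hochberg adjusted p = 0.403).

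Thy1, on chromosome 9 at 44043384 to 44048579, encodes a glycolipid-anchored surface protein of fibroblasts, neurons and mouse T cells. Its levels were low throughout, at 1.32, 1.17 and 1.10 CPM in normal kidney, 2.55, 8.45 and 4.74 CPM in the PBS group, 1.84, 2.27 and 6.73 CPM in EV200 and 2.55, 2.98 and 1.14 CPM in EV400. All PBS and EV200 libraries lay above the normal range, and EV400 replicate 3 lay within it. The log2 fold change between PBS and normal was 2.14 (SE 0.55; edgeR, Benjamini-Hochberg adjusted p = 0.0546). The T cell genes Cd3d and Cd3e were at 0.808 to 0.996 CPM and 0.787 to 2.01 CPM in the PBS group. Between PBS and normal Cd3d had a log2 fold change of 1.97 (SE 0.42; edgeR, Benjamini-Hochberg adjusted p = 0.0436). Cd3e stood at 1.59 (SE 0.48; edgeR, Benjamini-Hochberg adjusted p = 0.0685). The part of T cells in the level of Thy1 was not tested.

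The library ranges of Acta2, Tagln, Vim and Thy1 did not overlap between PBS and normal, which makes 4 of 8 members higher in every PBS library, beside 20.3% of all tested genes. Those 4 genes lay just outside the threshold, and the call depended on the tool and on single libraries. DESeq2 called the same 4, beside 15.1% of all genes, and limma-voom with quality weights called 6, adding Myh11 and Pdgfra, beside 32.9% of all genes. In a fit of the PBS and normal libraries alone edgeR called the 4 genes, beside 8.04% of all genes. A filter of at least 1 CPM in at least 3 libraries gave 3 calls, Tagln, Thy1 and Vim, beside 5.51% of all genes. Without PBS replicate 1 edgeR called 5 members, Myh11 being added to the 4, and beside them 11.9% of all genes. Without EV200 replicate 1 or EV200 replicate 3 it called 4 members, without EV400 replicate 3 it called 3, and without any other single library it called 0. Over the fits that left out 1 library, edgeR called from 0 to 2405 of all genes. These member counts are therefore not read as a result about the members.

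**Figure D2:**
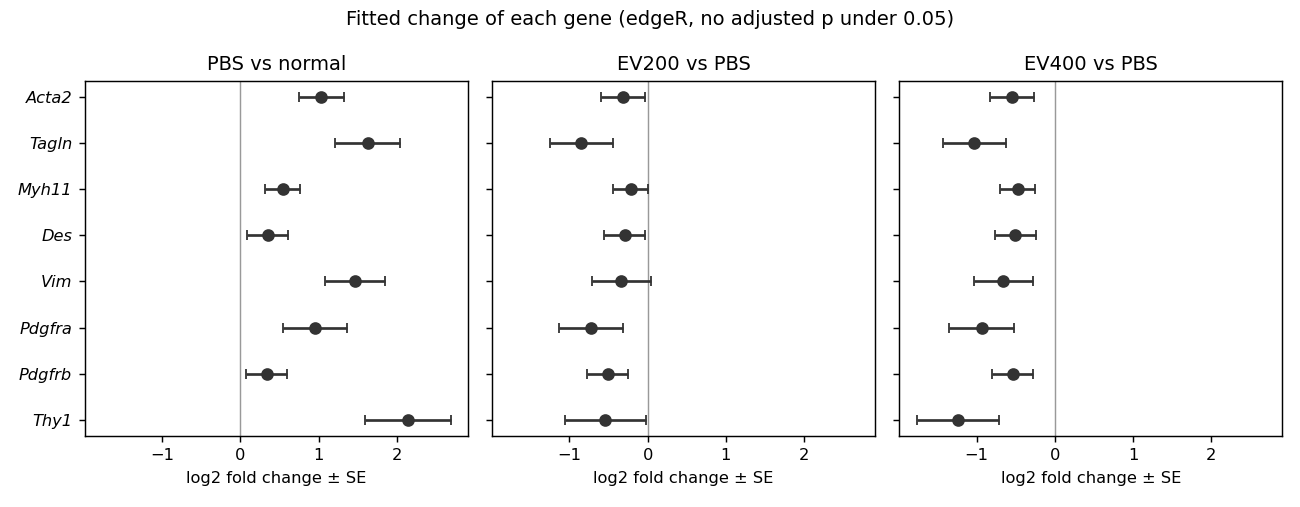
Fitted log2 fold change ± SE of each gene in 3 comparisons, from edgeR on all 12 libraries. All 8 values lie above 0 between PBS and normal and below 0 between either vesicle dose and PBS, and none reached an adjusted p of 0.05.

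The second question is what the vesicles changed after cisplatin. At 200 µg all 8 genes had a negative log2 fold change against PBS, from -0.22 for Myh11 and -0.29 for Des to -0.73 for Pdgfra and -0.85 for Tagln. Acta2 stood at -0.32, Vim at -0.33, Pdgfrb at -0.51 and Thy1 at -0.54 on the same log2 scale. EdgeR called 0 of the 8, beside 0.016% of all tested genes, and 0 reached an unadjusted p of 0.05, beside 6.90%. DESeq2 also called 0, beside 0.24% of all genes. The median of the members was -0.42, and that of all tested genes was -0.0025. Library ranges overlapped for every member, where 4.94% of all genes were lower in every EV200 library, and edgeR's Benjamini-Hochberg adjusted p lay between 0.657 and 0.755. Limma-voom with quality weights, which gave EV200 replicate 3 a weight of 0.283 and EV200 replicate 2 a weight of 2.97, called Des, Pdgfra, Pdgfrb, Tagln and Vim lower, beside 8.80% of all genes. In every limma-voom comparison with PBS, PBS replicates 1, 2 and 3 had weights of 0.666, 0.163 and 3.47. Those of EV400 were 3.38, 0.815 and 0.344, so single libraries weighed far more than the others in these groups. How far the limma-voom calls rested on single libraries was not tested.

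Single libraries set the size of these differences. Without EV200 replicate 3 the log2 fold change against PBS was -1.50 for Tagln, -1.36 for Thy1, -1.14 for Pdgfra, -0.97 for Vim and -0.70 for Acta2. Without PBS replicate 2 it was -0.55 for Tagln, -0.0091 for Thy1, -0.12 for Pdgfra, -0.13 for Vim and -0.15 for Acta2. Neither omission gave a call of a member in edgeR.

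At 400 µg the 8 log2 fold changes against PBS were again all negative: -1.24 for Thy1, -1.03 for Tagln, -0.93 for Pdgfra, -0.66 for Vim, -0.55 for Acta2, -0.54 for Pdgfrb, -0.51 for Des and -0.47 for Myh11. EdgeR called none of them, beside 0.0801% of all tested genes. Tagln, Thy1 and Pdgfra had an unadjusted p under 0.05 and were lower, which makes 3 of 8 beside 23.5% of all genes in either direction and 12.6% lower. Library ranges overlapped for every member, where 13.8% of all genes were lower in every EV400 library, and edgeR's Benjamini-Hochberg adjusted p lay between 0.181 and 0.292. The members' median was -0.60 and that of all tested genes -0.025. DESeq2 called 0 members, beside 5.02% of all genes, and limma-voom with quality weights called Myh11 and Tagln lower, beside 14.6% of all genes. Both vesicle comparisons share the 3 PBS libraries, so the common sign of their values is not independent. Without EV400 replicate 3 the values moved to -0.92 for Thy1, -0.80 for Tagln, -0.66 for Pdgfra and -0.28 for Pdgfrb, and without PBS replicate 2 to -0.71, -0.74, -0.33 and -0.37 for these genes.

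Between the doses, EV400 against EV200, log2 fold changes ran from -0.70 for Thy1 and -0.32 for Vim to -0.026 for Pdgfrb. EdgeR called 0 of 8, beside 0.00534% of all tested genes, and 0 reached an unadjusted p of 0.05, beside 6.34%. DESeq2 and limma-voom each called 0 members, beside 0.0747% and 0.774% of all genes. EdgeR's Benjamini-Hochberg adjusted p lay between 0.819 and 0.989. The direction depended on EV200 replicate 3: without it the value was 0.47 for Tagln, 0.31 for Vim, 0.22 for Pdgfrb, 0.21 for Pdgfra, 0.15 for Acta2, 0.12 for Thy1 and 0.11 for Des, and Myh11 alone kept a negative value, -0.059. Without EV400 replicate 3 it was 0.23 for Pdgfrb, 0.064 for Pdgfra and 0.043 for Tagln. An order of the doses was therefore not detectable for these genes.

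Set against normal kidney, EV200 had higher levels of Acta2, Vim and Thy1 in every library, 3 of 8 members beside 11.9% of all tested genes. The log2 fold changes were 1.59 (SE 0.55) for Thy1, 1.13 (SE 0.39) for Vim and 0.72 (SE 0.29) for Acta2, each with an unadjusted p under 0.05, and without EV200 replicate 3 they were 0.78, 0.49 and 0.33. EdgeR called 0 of 8 members, beside 0.0694% of all genes, with Benjamini-Hochberg adjusted p between 0.258 and 0.955, while an unadjusted p of 0.05 was reached by 13.2% of all genes, 8.86% being higher. DESeq2 and limma-voom called 0 members, beside 2.64% and 5.86% of all genes. Tagln stood at 0.78, Myh11 at 0.32, Pdgfra at 0.23, Des at 0.054 and Pdgfrb at -0.18, and without EV200 replicate 3 Tagln stood at 0.13, Pdgfra at -0.19 and Des at -0.27.

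In EV400 only Acta2 and Vim lay above every normal library, 2 of 8 members beside 8.28% of all tested genes. Vim differed from normal by a log2 fold change of 0.80 (SE 0.39) and Acta2 by 0.48 (SE 0.29). Thy1 stood at 0.90, Tagln at 0.60, Myh11 at 0.066, Pdgfra at 0.018, Des at -0.16 and Pdgfrb at -0.20. EdgeR called 0 of 8 members, beside 0% of all genes, and 0 reached an unadjusted p of 0.05, beside 6.98%, with Benjamini-Hochberg adjusted p between 0.723 and 0.995. DESeq2 called 0 members, beside 0.187% of all genes, and limma-voom with quality weights called Vim, beside 7.91%. Without EV400 replicate 3 Thy1 stood at 1.23, Vim at 1.07, Tagln at 0.83, Pdgfra at 0.30, Pdgfrb at 0.064 and Des at 0.049. Without EV400 replicate 1 Pdgfra stood at -0.049, and without EV400 replicate 2 at -0.21.

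A joint test of any difference among the 4 groups gave edgeR calls for 0 of 8 members, beside 0.0641% of all tested genes. Acta2, Tagln, Thy1 and Vim had an unadjusted p under 0.05 in it, 4 of 8 beside 19.7% of all genes. Its Benjamini-Hochberg adjusted p ran from 0.174 for Tagln to 0.512 for Des. DESeq2 called Acta2 and Thy1 in the joint test, beside 9.22% of all genes, and limma-voom called all 8, beside 35.4%. Without EV200 replicate 3 edgeR called Tagln, and over the fits that left out 1 library it called from 1 to 409 of all genes.

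The members also differed between groups relative to one another, which a ratio of counts within each library shows without any scaling between libraries. These ratios were chosen after the values were seen and carry no test. The log2 ratio of Vim to Des was 1.13 ± 0.066 (SD, n = 3) in normal kidney, 2.22 ± 0.13 in PBS, 2.09 ± 0.39 in EV200 and 2.07 ± 0.18 in EV400. All 9 libraries given cisplatin lay above the normal ones in this ratio, the lowest at 1.72 in EV200 replicate 1 and the highest normal library at 1.19. EV400 replicate 3, which had the lowest Des of all libraries and Vim close to normal, still held a ratio of 1.91.

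The log2 ratio of Acta2 to Myh11, an early against a late smooth muscle gene, was -0.0018 ± 0.11 in normal kidney, 0.49 ± 0.066 in PBS, 0.33 ± 0.30 in EV200 and 0.42 ± 0.058 in EV400. PBS and EV400 lay apart from normal in it, and EV200 replicate 1 lay within the normal range. For Tagln to Myh11 the log2 ratio was -0.67 ± 0.34 in normal kidney, 0.40 ± 0.24 in PBS, -0.36 ± 0.53 in EV200 and -0.17 ± 0.31 in EV400, and PBS alone lay apart from normal. Between the receptors, Pdgfra to Pdgfrb, it was -0.53 ± 0.13 in normal kidney, -0.064 ± 0.55 in PBS, -0.18 ± 0.21 in EV200 and -0.32 ± 0.046 in EV400. Pdgfra had more counts than Pdgfrb in PBS replicate 2 and EV200 replicate 3, and in no other library. Counts are not scaled to transcript length. In TPM Pdgfra lay above Pdgfrb only in PBS replicate 2, at 26.99 against 22.35. In EV200 replicate 3 it lay below, at 13.97 against 16.24 TPM.

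**Figure D3:**
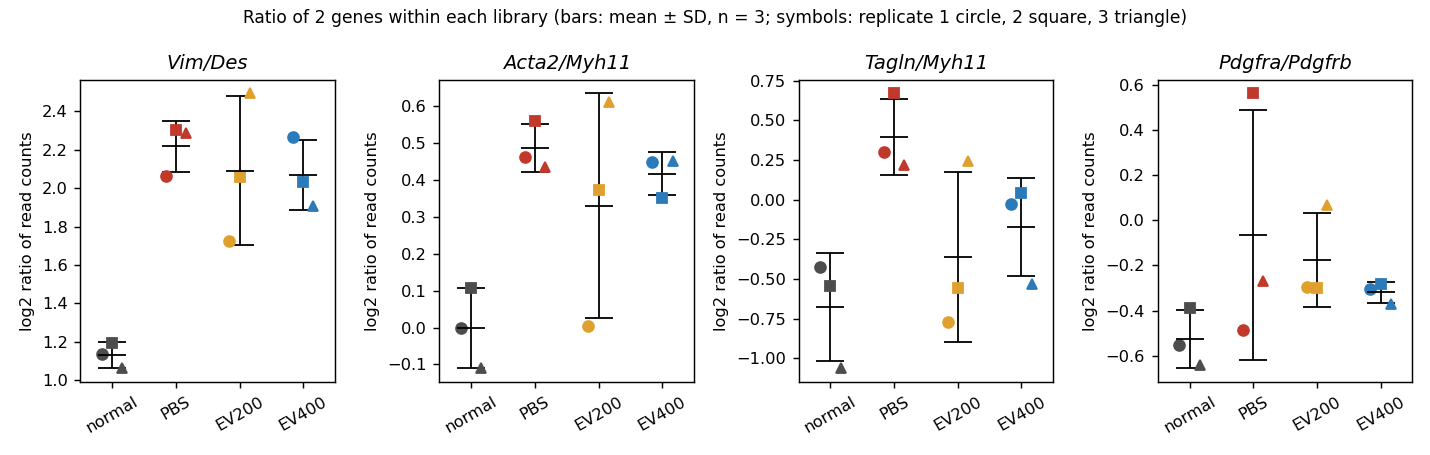
Log2 ratio of the read counts of 2 genes within each library (vertical axis) for 4 pairs, by group, with symbols for replicates and bars for the mean ± SD of 3 libraries. The Vim to Des ratio separates all 9 cisplatin libraries, at 1.72 or more, from the normal ones, at 1.19 or less, and the Pdgfra to Pdgfrb ratio spreads most in PBS, from -0.49 to 0.56.

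The members varied together across libraries. Over the 12 libraries, which share group differences, the 28 pairs of members had a median Pearson r of log2 CPM of 0.85, from 0.54 for Acta2 with Pdgfrb to 0.97 for Vim with Thy1, and a median Spearman rho of 0.70. With the group means removed the median r was 0.89, so libraries high in one member within their group were high in the others. The first component of all tested genes, with 43.4% of the variance, also spread the libraries within the cisplatin groups. No median was taken over pairs of other genes, so this likeness is not called particular to the members. Among 10670 genes averaging at least 5 CPM, the pattern most like that of Acta2 was that of Emp1, a membrane protein gene (r 0.97), with Ank and the pericyte gene Rgs5 next. For Tagln it was that of Mmp14, a membrane-bound collagenase gene (r 0.98), followed by Rab31 and Icosl. The genes most like Myh11 were Cavin3, which encodes a caveolar coat protein (r 0.93), Mxra7 and Stom, and those most like Des were Lrrc8c (r 0.97) and the collagen VI genes Col6a1 and Col6a2. Vim was most like Sdc1, a heparan sulfate proteoglycan gene (r 0.98), the podocyte gene Ptpro and Pltp. Among the genes most like Pdgfra were the collagen receptor gene Ddr2 and the actin-binding protein gene Cald1 (r 0.98 for both). Pdgfrb was most like the basement membrane gene Nid1 (r 0.97), Nrp2 and Col5a1, and Thy1 was most like Arl4c (r 0.99), Fxyd5 and Plbd1.

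Related genes were read from lists by role, in the comparison of PBS with normal, with the median log2 fold change of all tested genes at 0.0022. In that comparison 1.84% of all tested genes were called higher, and 17% were higher at an unadjusted p under 0.05. Of 13 tested smooth muscle genes edgeR called 0, although 5 had an unadjusted p under 0.05 and were higher, and their median was 0.29. Tpm1, a tropomyosin gene, stood at 0.75 (SE 0.22; edgeR, Benjamini-Hochberg adjusted p = 0.0671), and Myocd, the myocardin gene, at 1.45 (SE 0.48; adjusted p = 0.0841) on the log2 scale. Of 13 pericyte and mesangial genes 1 was called higher, Gata3, a transcription factor gene of mesangial cells and also of distal tubule, at 0.62 (SE 0.13; edgeR, Benjamini-Hochberg adjusted p = 0.0430). Within this list Rgs5, a gene of pericytes, stood at 0.90 (SE 0.29; adjusted p = 0.0806), Cspg4, the NG proteoglycan gene of pericytes, at -0.038 (SE 0.14), and Kcnj8, a pericyte potassium channel gene, at -0.57 (SE 0.15; adjusted p = 0.0578).

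Genes of fibroblasts and of the matrix were read in the same way, with 2.74% of all tested genes called in either direction and 1.84% higher. Of 13 resident fibroblast genes 4 were called higher, Lum, Gsn, Fbln1 and Dpt, and the list's median log2 fold change was 0.86. In the same list Ly6a stood at -0.18 (SE 0.14) and was lower in every PBS library, Entpd2 stood at -0.16 (SE 0.16) and Col14a1 at -0.13 (SE 0.25). Lum, the gene of the proteoglycan lumican, rose by a log2 fold change of 2.93 (SE 0.62; edgeR, Benjamini-Hochberg adjusted p = 0.0436). Of 16 myofibroblast matrix genes 4 were called higher, Tnc, Postn, Ncam1 and Lox, all 16 had a positive value, and the median was 1.96. Tnc, the tenascin C gene, went from 1.24 to 1.50 CPM in normal kidney to 11.1 to 42.3 CPM in PBS, a log2 fold change of 3.99 (SE 0.77; edgeR, Benjamini-Hochberg adjusted p = 0.0405). Without PBS replicate 1, and likewise without EV200 replicate 3, the calls were 8 fibroblast and 10 matrix genes. Calls of all genes also changed, to 11.9% without PBS replicate 1 and from 0 to 2405 genes over the fits that left out 1 library. Without PBS replicate 1 there were also 6 smooth muscle and 3 pericyte and mesangial calls, and without EV200 replicate 3 there were 2 and 5. Without EV200 replicate 2 they were 0 and 1, and without PBS replicate 2 or 3, EV400 replicate 1 or 2 or any 1 of the normal libraries they were 0 and 0. The calls of Gata3 and Actb were lost without PBS replicate 2 or 3, EV400 replicate 1 or 2 or any 1 of the normal libraries, and that of Actb also without EV200 replicate 2.

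The ligands of the PDGF receptors were all measured. Pdgfa was at 8.16 to 9.05 CPM in normal kidney and 9.70 to 14.6 CPM in PBS, Pdgfb at 17.5 to 20.3 and 23.7 to 27.7 CPM, Pdgfc at 16.2 to 17.4 and 13.1 to 15.7 CPM, and Pdgfd at 12.4 to 14.7 and 14.2 to 21.2 CPM. EdgeR called none of the 4 ligand genes, and 3 had an unadjusted p under 0.05, all higher, beside 17% of all tested genes. Pdgfb, the ligand gene of endothelium that recruits pericytes, stood at a log2 fold change of 0.41 (SE 0.13; edgeR, Benjamini-Hochberg adjusted p = 0.0691). Pdgfc was the one ligand gene lower in every PBS library, at -0.19 (SE 0.091). Of 10 regulators of SRF and TGF-beta signalling 0 were called and 3 had an unadjusted p under 0.05, all higher, beside the same 17%. Tgfb3 stood at 1.31 (SE 0.37; edgeR, Benjamini-Hochberg adjusted p = 0.0613) and Srf at 0.088 (SE 0.096) on the log2 scale. Of 6 other intermediate filament genes tested 2 were called higher, and both, Krt18 and Krt19, are keratin genes of epithelium.

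In the comparison of EV400 with PBS the sole call among all these related genes was Ren1, the renin gene of the juxtaglomerular cells, which belong to the pericyte lineage. Ren1 was at 30.9, 39.4 and 32.2 CPM in normal kidney, at 26.0, 18.6 and 23.0 CPM in PBS, at 23.8, 31.7 and 46.1 CPM in EV200 and at 56.2, 65.4 and 50.6 CPM in EV400. Every EV400 library lay above every other library. The log2 fold change between EV400 and PBS was 1.35 (SE 0.21; edgeR, Benjamini-Hochberg adjusted p = 0.0493). The call held in 7 of 19 alternative settings. DESeq2 and limma-voom kept it, and it was lost on leaving out any 1 normal, PBS or EV400 library or EV200 replicate 2, with the value between 1.23 and 1.47 in those fits. It was also lost in a fit of the EV400 and PBS libraries alone (adjusted p = 0.0728 from edgeR) and with the replicate block (adjusted p = 0.118 from edgeR). No member followed this pattern, since each had its highest mean in the PBS group. In EV200 against PBS edgeR called 0 of the related genes. At an unadjusted p under 0.05, 11 of 16 matrix genes were lower in EV400 than in PBS and 0 were higher. Of 13 resident fibroblast genes 7 were lower and 1 was higher, and of 13 pericyte and mesangial genes 1 was lower and 2 were higher. Of all tested genes 12.6% were lower at that level.

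Summed markers of macrophages, T cells and urothelium were also higher in PBS than in normal kidney. They did not follow every member in every library. In EV200 replicate 2 the urothelial sum was 2.63 above the normal mean on the log2 scale. The T cell sum was 0.61 and the macrophage sum 0.37 above it. Des, Pdgfra and Pdgfrb stood at -0.36, -0.31 and -0.55 there. The other members stood above the normal mean there, Thy1 at 0.93, Vim at 0.57, Acta2 at 0.54, Tagln at 0.27 and Myh11 at 0.16. The summed level of 9 macrophage genes was 128.3 to 146.2 CPM in normal kidney, 238.0 to 412.0 CPM in PBS, 163.0 to 365.4 CPM in EV200 and 122.6 to 205.9 CPM in EV400. EdgeR called 4 of the 9 higher in PBS than in normal kidney, where it called 1.84% of all tested genes higher. For 9 T cell genes, of which 1 was called higher, the sums were 4.97 to 8.25 CPM, 10.3 to 17.1 CPM, 6.24 to 16.6 CPM and 6.75 to 10.01 CPM in the same order of groups. The 7 urothelial genes, 2 of them called higher, summed to 1.83 to 3.40 CPM, 10.4 to 24.4 CPM, 2.87 to 27.1 CPM and 2.46 to 7.70 CPM. These calls too depended on single libraries, with 0 to 8 macrophage, 0 to 7 T cell and 0 to 4 urothelial genes called when 1 library was left out. The same fits called from 0 to 2405 of all genes, and the fit without PBS replicate 1 called 11.9% of them. All 3 lists were at 0 without PBS replicate 2 or 3, EV400 replicate 1 or 2, EV200 replicate 2 or any 1 normal library. They reached 8, 4 and 4 without PBS replicate 1, 8, 7 and 3 without EV200 replicate 3, 7, 1 and 4 without EV200 replicate 1, and 7, 1 and 2 without EV400 replicate 3. The part of these cells in the levels of Vim and Thy1 was not tested.

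The 6 podocyte genes summed to 290.8 to 348.9 CPM in normal kidney and 367.5 to 469.9 CPM in PBS. Of them 0 were called and 6 were higher at an unadjusted p under 0.05, beside 17% of all tested genes. The 8 endothelial genes summed to 467.0 to 491.8 CPM and 406.2 to 477.7 CPM, with 0 called. At an unadjusted p under 0.05, 0 were higher and 2 lower, beside 29.8% of all tested genes in either direction. The 10 kidney tubule genes, which identify the tissue, were abundant in every library, with Slc34a1, the proximal tubule phosphate transporter gene, at 3176 to 6665 CPM. Their sum was 34580 to 37780 CPM in normal kidney and lower in every PBS library, at 24400 to 31120 CPM. Lrp2 stood at a log2 fold change of -0.50 (SE 0.15), Slc34a1 at -0.50 (SE 0.20), Slc22a6 at -0.50 (SE 0.17) and Kap at -0.41 (SE 0.15). Of the 10 genes 5 had a log2 fold change above 0, and edgeR called 0 lower. The 1 called gene of the list was higher, Slc12a1 of the thick ascending limb, at 0.67 (SE 0.13; edgeR, Benjamini-Hochberg adjusted p = 0.0405). Of 2 tested mesothelial genes 0 were called and 1 had an unadjusted p under 0.05, beside 29.8% of all tested genes. That gene was Wt1, which is also among the 6 podocyte genes. Muc16 was at 0 in every library. The fat cell gene Adipoq was at 7.67 CPM in PBS replicate 3 and at 0.124 CPM or less in every other library. The part of fat cells in the members' values was not tested. Without PBS replicate 3 the log2 fold change between PBS and normal was 2.20 for Thy1, 1.57 for Tagln, 1.37 for Vim, 0.89 for Acta2 and 1.07 for Pdgfra. The skeletal muscle genes Ckm, Myh4, Myh2 and Tnnc2 were at 0 in every library.

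**Figure D4:**
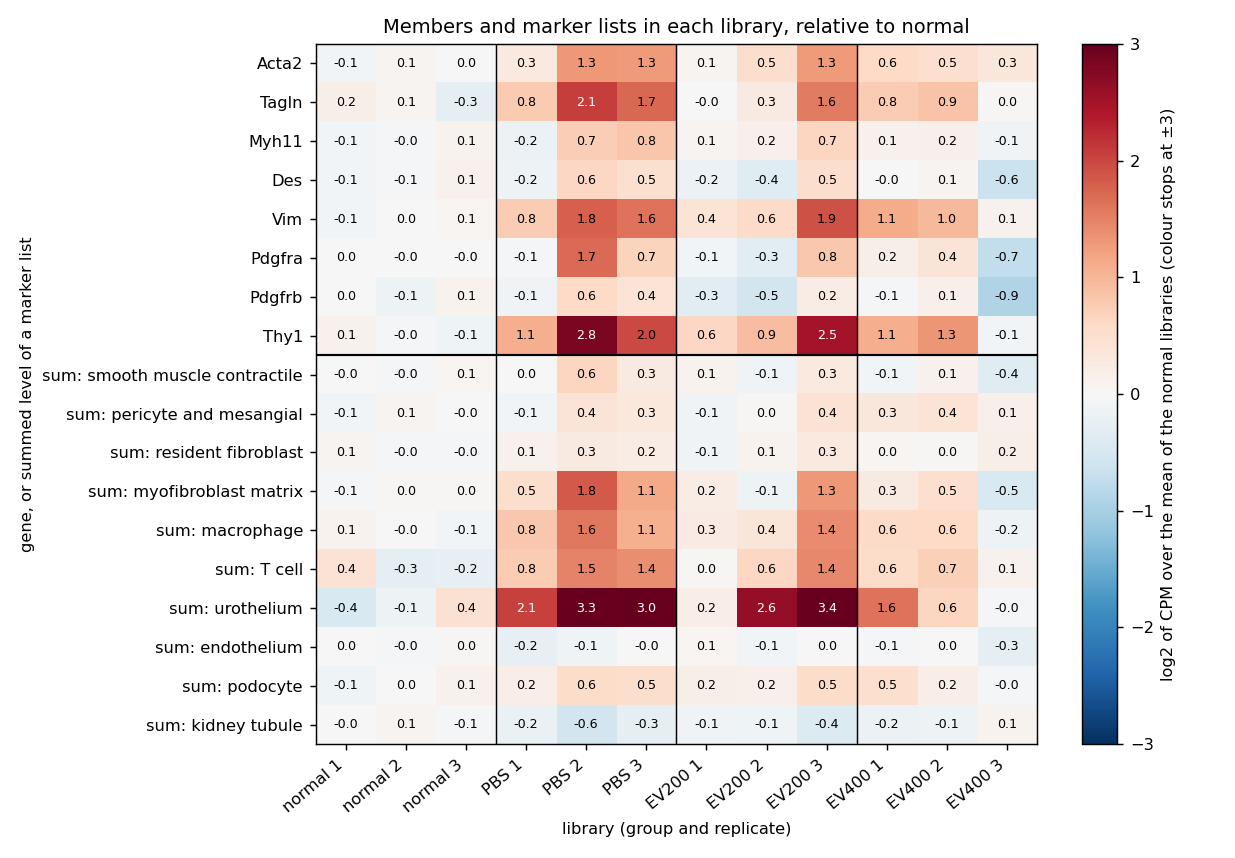
Log2 of the CPM of each gene (upper rows), or of the summed CPM of a marker list (lower rows), over the mean of the normal libraries, in each of the 12 libraries (columns). PBS replicates 2 and 3 and EV200 replicate 3 hold the highest values of nearly every member and of the macrophage and matrix sums, and EV400 replicate 3 holds the lowest values of Des, Pdgfra and Pdgfrb, at -0.64, -0.74 and -0.90.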

How the data were processed

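Kidney messenger RNA libraries (stranded, paired 101-base reads, 1 batch) were made from 4 groups of 3 mouse samples. The submitters' processing notes name HISAT2 2.1.0 and StringTie 2.1.3b, FastQC 0.11.7 and Trimmomatic 0.38, and the build GRCm38 (mm10); no source used here names the read counter or its strand setting. The authors deposited read counts and TPM per gene and library; TPM divides by transcript length and sums to 1000000 per library. The 12 FPKM columns were not used. Of 45777 genes, 17340 were at 0 in every library.

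Counts were tested with edgeR 4.0.16 in R 4.3.3: TMM factors, filterByExpr, one quasi-likelihood fit of 12 libraries, and Benjamini-Hochberg adjustment over 18730 genes with calls at 0.05. CPM are counts scaled to library size times the TMM factor. Alternatives were DESeq2 1.42.0, limma 3.58.1 (voom with quality weights), other filters and scaling, a replicate block, the compared groups alone and each library left out. The edgeR fit was tested on simulated counts for the comparison of PBS with normal, and the other steps were not. Reads without molecular identifiers are not independent molecules.

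The members and the gene lists were chosen with earlier results of these data known. Named genes were the members, up to 3 genes per list with the smallest joint p, the 3 genes most like each member (1 is not reported here), and the PDGF ligand and paralogous actin genes; Pcsk7, Rgs5, Cspg4, Kcnj8, Dpt, Lox, Cd3e, Srf, Slc34a1, Slc22a6, Kap, Ly6a, Entpd2, Col14a1, Adipoq and the genes at 0 were named after their values were seen. Of the gene identifiers, 45679 matched RefSeq. Gene start and end positions come from RefSeq, and strands and shared exonic bases from the GENCODE annotation of GRCm38.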

Additional observations from a re-analysis of the deposited data

How the results depend on the processing

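Genes called between PBS and normal numbered 514, against 299 without a filter, 819 with the stricter filter, 2835 with DESeq2, 6164 with limma-voom, 1449 with the compared groups alone and 0 with the replicate block; members called were 3 with the stricter filter, 4 with DESeq2, 6 with limma-voom and 4 with the compared groups alone. Leaving out 1 library gave 0 to 2405 genes and 0 to 5 members. EV200 against PBS had 3 genes called, with 45 in DESeq2, 1649 in limma-voom (5 members), 0 with the block, 0 with the compared groups alone and 1 to 6 without 1 library. EV400 against PBS had 15, with 940 in DESeq2, 2731 in limma-voom (2 members), 10 with the block, 2 with the compared groups alone and 0 to 65 without 1 library. EV400 against EV200 had 1, with 0 under the stricter filter, 14 in DESeq2, 145 in limma-voom, and 0 with the block or the compared groups alone. EV200 against normal had 13, with 26 under the stricter filter, 494 in DESeq2, 1098 in limma-voom, 6 with the block, 28 with the compared groups alone and 2 to 90 without 1 library. EV400 against normal had 0, with 35 in DESeq2 and 1481 in limma-voom (1 member). The joint test had 12, with 1726 in DESeq2 (2 members), 6634 in limma-voom (8 members), 0 with the block, and 1 to 409 genes and 0 to 1 members without 1 library.

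Of 912 member log2 fold changes under alternatives, 846 kept their direction and side of the threshold, 41 passed it and 25 reversed. Limma-voom reversed EV400 against EV200 for Acta2 (0.041), Tagln (0.42), Des (0.22), Vim (0.38), Pdgfra (0.33), Pdgfrb (0.37) and Thy1 (0.062), and EV200 against normal for Des (-0.26) and Pdgfra (-0.19). Without 1 library, EV400 against EV200 ran from -0.46 to 0.15 for Acta2, -0.45 to 0.47 for Tagln, -0.38 to 0.11 for Des, -0.58 to 0.31 for Vim, -0.44 to 0.21 for Pdgfra, -0.24 to 0.23 for Pdgfrb and -1.01 to 0.12 for Thy1. EV200 against normal ran from -0.27 to 0.24 for Des and -0.19 to 0.45 for Pdgfra. EV400 against normal ran from -0.30 to 0.049 for Des, -0.21 to 0.30 for Pdgfra and -0.42 to 0.064 for Pdgfrb. The median likeness of member pairs was 0.85 by Pearson's r, 0.70 by Spearman's rho and 0.89 for deviations from group means, a measure chosen after seeing the data. The cause of these shifts was not tested. Same-numbered libraries correlated between -0.385 and 0.344 in their deviations. Differently numbered libraries reached -0.459 and 0.494, so these values cannot tell whether the numbers pair the samples. The main fit used no pairing, and the replicate block gave 0 members called in every comparison. With 3 libraries per group, differences within the spread of the PBS libraries were not detectable.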
